A study of Mus musculus with 36 samples.

Results

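Nephron progenitor transcription regulators were followed as 9 genes, *Six2*, *Six4*, *Eya1*, *Osr1*, *Sall1*, *Wt1*, *Pax2*, *Pax8* and *Cited1*, taken by gene name from a table of 22761 genes. All 9 were in the table, and they were read in all 36 RNA sequencing libraries of the series, which form 9 groups of 4. The study made renogenic cells from mouse embryonic stem cells (mESC) and set them beside the same kinds of cell isolated from fetal mouse kidneys (ex-fetu cells), as components for kidney organoids. The levels of the 9 regulators therefore bear on how near the induced cells were to their ex-fetu equivalents. In each such comparison the source of the cells, their strain or line and their culture differ together and cannot be told apart.

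Ex-fetu nephron progenitors (NP), stromal progenitors (SP) and ureteric bud cells (UB) came from CD1 embryos titled E11.5 or E12.5. Nephron and stromal progenitors made in culture (iNP and iSP) were sorted from the same differentiation of E14 mESC. Engineered ureteric bud cells (eUB, titled iUB in the labels) came from another differentiation and from a line that the labels call *Sox9-mCherry*, while elsewhere the methods describe a *Sox8-mCherry* line made of 2 clones. NP and iNP were sorted as high in ITGA8 and low in PDGFRA, SP and iSP as low in ITGA8 and high in PDGFRA, in both cases after gating against CD31 and against EpCAM or RET. UB cells were sorted on RET and EpCAM, and eUB cells on EpCAM and mCherry. A sample was the pooled kidneys of all embryos of 1 mouse, or the pooled embryoid bodies of 1 batch of differentiation. For the UB samples the labels conflict: those titled E11.5 name E12.5 cells as their source, and those titled E12.5 name E11.5 cells. The titles are used here, and which age is right cannot be told apart.

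Nephron progenitors form the cap mesenchyme around the tips of the ureteric bud, where they either renew themselves or turn epithelial to build nephrons. SIX2 holds them in the renewing state, EYA1 acts as a co-activator with SIX2 and its relatives, and OSR1, SALL1 and WT1 are zinc finger proteins needed by the mesenchyme from which they arise. PAX2 and PAX8 are paired-box proteins of both the mesenchyme and the ureteric lineage, and CITED1 is a transcriptional co-regulator that marks the least advanced progenitors of the cap.

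Levels are given as normalised CPM, read counts relative to library size that the authors scaled with edgeR factors. Libraries held 13.0 to 52.5 M reads on genes (median 27.4 M), so that 3 reads, taken as the limit of detection, were 0.0605 to 0.223 normalised CPM. Differences are on the scale log2(normalised CPM + 1), with the standard error (SE) of limma, which was fitted on every gene that reached 1 normalised CPM in 4 or more libraries of the comparison. A gene is said to be called, to rise or to fall when its limma p-value, adjusted over all genes tested, was under 0.05. In pooled cells, fewer cells of a kind and less RNA per cell cannot be told apart.

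Marker lists were read beside the labels. The lists hold genes of sorted proteins, *Ret* and *Epcam* for ureteric bud and *Pdgfra* for stroma. Part of the separation below was thus set by the sort, so it is no independent check of the labels. The summed level of 12 ureteric bud markers was 2828 to 5392 normalised CPM in the UB and eUB libraries and at most 344 in any other. That of 12 stromal markers was 4838 to 9429 in SP and iSP libraries and at most 1256 elsewhere, although *Foxd1*, the regulator that defines kidney stroma, was at 15.2 normalised CPM in iSP (mean, range 11.4 to 19.2) against 410 in E11.5 SP (265 to 563). The 22 other nephron progenitor genes listed here summed to 3380 to 4792 in ex-fetu NP and 1534 to 2125 in iNP. In iSP they summed to 1513 to 1658, so that the sums of iNP and iSP overlapped, and elsewhere to at most 1422. Gene by gene, of 20 tested between iNP and iSP, 12 were called higher in iNP and 5 lower. Their median difference was 0.76, beside 0.0003 over all genes, of which 30.7% were called (16.5% higher in iNP, 14.2% lower). Replicate 1 of E12.5 SP and of E12.5 UB stood apart from the other replicates, at r of 0.978 to 0.983 and 0.978 to 0.98 across genes against at least 0.994 and 0.996 among the others. In E12.5 NP both replicate 1 (0.986 to 0.988) and replicate 2 (0.988 to 0.99) stood apart from replicates 3 and 4 (0.998 with each other), and these 2 were also the least alike (0.977). Replicate 2 of iNP and replicate 1 of eUB stood apart as well, at 0.984 to 0.985 and 0.985 to 0.991, against at least 0.997 among the others of each group. In E11.5 SP replicate 4 was at 0.983 with replicates 1 and 2. E12.5 UB replicate 1 held 931 normalised CPM of stromal markers against 37.8 to 71.5 in the other E12.5 UB libraries, and 138 of 10 endothelial markers against 23.1 to 27.7. In E12.5 SP replicate 1 the stromal markers summed to 5933, against 8939 to 9429 in the others, and in E12.5 NP replicate 1 the ureteric bud markers summed to 127, against 42.5 to 54.7. Counts of called regulators that leaving out an E12.5 replicate 1 library changed are given with and without it.

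Promoter windows of RefSeq on GRCm38.p6, from 250 bases before to 50 bases after a transcription start, were found for 6 of the 9 genes. The 4 below belong to the genes whose levels differed most between iNP and E11.5 NP (*Six2*, *Cited1*, *Pax8*) and to *Pax2*, the relative of *Pax8* that went the other way. They are chr17:85688205-85688504 for *Six2*, chrX:102252132-102252431 for *Cited1* and chr2:24475550-24475849 for *Pax8*, all on the minus strand, and chr19:44755502-44755801 for *Pax2* on the plus strand. Capitals mark matches, on either strand, to the motifs searched:
Six2: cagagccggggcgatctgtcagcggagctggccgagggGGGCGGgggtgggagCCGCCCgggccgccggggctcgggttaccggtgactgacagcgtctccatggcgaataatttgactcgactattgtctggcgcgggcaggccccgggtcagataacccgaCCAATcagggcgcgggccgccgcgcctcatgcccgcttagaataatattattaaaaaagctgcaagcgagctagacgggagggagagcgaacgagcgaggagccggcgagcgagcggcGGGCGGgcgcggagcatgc
Cited1: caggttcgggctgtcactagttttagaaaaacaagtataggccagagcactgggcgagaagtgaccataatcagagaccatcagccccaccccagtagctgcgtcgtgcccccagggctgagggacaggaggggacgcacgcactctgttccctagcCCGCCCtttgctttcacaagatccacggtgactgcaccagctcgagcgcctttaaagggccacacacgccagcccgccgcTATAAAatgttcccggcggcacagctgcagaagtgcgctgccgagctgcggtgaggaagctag
Pax2: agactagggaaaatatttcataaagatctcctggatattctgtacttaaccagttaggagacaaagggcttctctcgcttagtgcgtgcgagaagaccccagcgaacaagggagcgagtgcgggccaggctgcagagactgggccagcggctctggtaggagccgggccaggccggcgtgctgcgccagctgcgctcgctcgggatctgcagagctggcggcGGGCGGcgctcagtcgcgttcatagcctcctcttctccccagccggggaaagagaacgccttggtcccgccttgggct
Pax8: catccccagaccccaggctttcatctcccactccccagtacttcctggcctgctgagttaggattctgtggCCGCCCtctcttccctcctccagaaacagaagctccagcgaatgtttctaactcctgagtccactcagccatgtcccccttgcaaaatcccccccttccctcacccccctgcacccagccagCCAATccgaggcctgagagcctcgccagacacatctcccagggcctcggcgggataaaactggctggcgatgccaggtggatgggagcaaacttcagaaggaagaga

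One motif searched was the GC box GGGCGG, and another was the CCAAT box. A further one was the TATA box TATAAA. The motif CTTTGAT is one that WNT-responsive TCF factors bind, TCAGGTT one that SIX2 and its relatives bind, and GCGGGGGCG one that EGR1 and WT1 bind. The *Six2* window held 3 GC boxes and 1 CCAAT, and 37 CpG dinucleotides, against a median of 7 over 32851 windows of 300 bases. That of *Pax8* held 1 GC box, 1 CCAAT and 7 CpG, that of *Pax2* 1 GC box and 23 CpG, and that of *Cited1* 1 GC box, 1 TATAAA and 18 CpG. GC boxes were found in 35.7% of all windows, CCAAT in 37.4% and TATAAA in 13.6%. The letters of the other motifs, found in 3.73%, 4.07% and 2.91% of all windows, were not in these 4.

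In ex-fetu kidney at E11.5 the regulators fell into 3 patterns. *Six2* was at its highest in NP and far lower in both SP and UB. *Eya1*, *Osr1*, *Sall1* and *Wt1* were highest in NP, lower in SP and lowest in UB. *Pax2*, *Pax8* and *Cited1* were shared by NP and UB, while the means of *Six4* spanned a narrow range, 42.6 to 62.8 normalised CPM. At E12.5 *Osr1* was far lower in SP than in NP too, by 3.90 on the log2 scale (SE 0.13, limma adjusted p = 1.79e-07), and *Cited1* was lower in UB than in NP, by 1.77 (SE 0.19, limma adjusted p = 0.000102). The plot of all libraries shows each pattern.

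**Figure D1:**
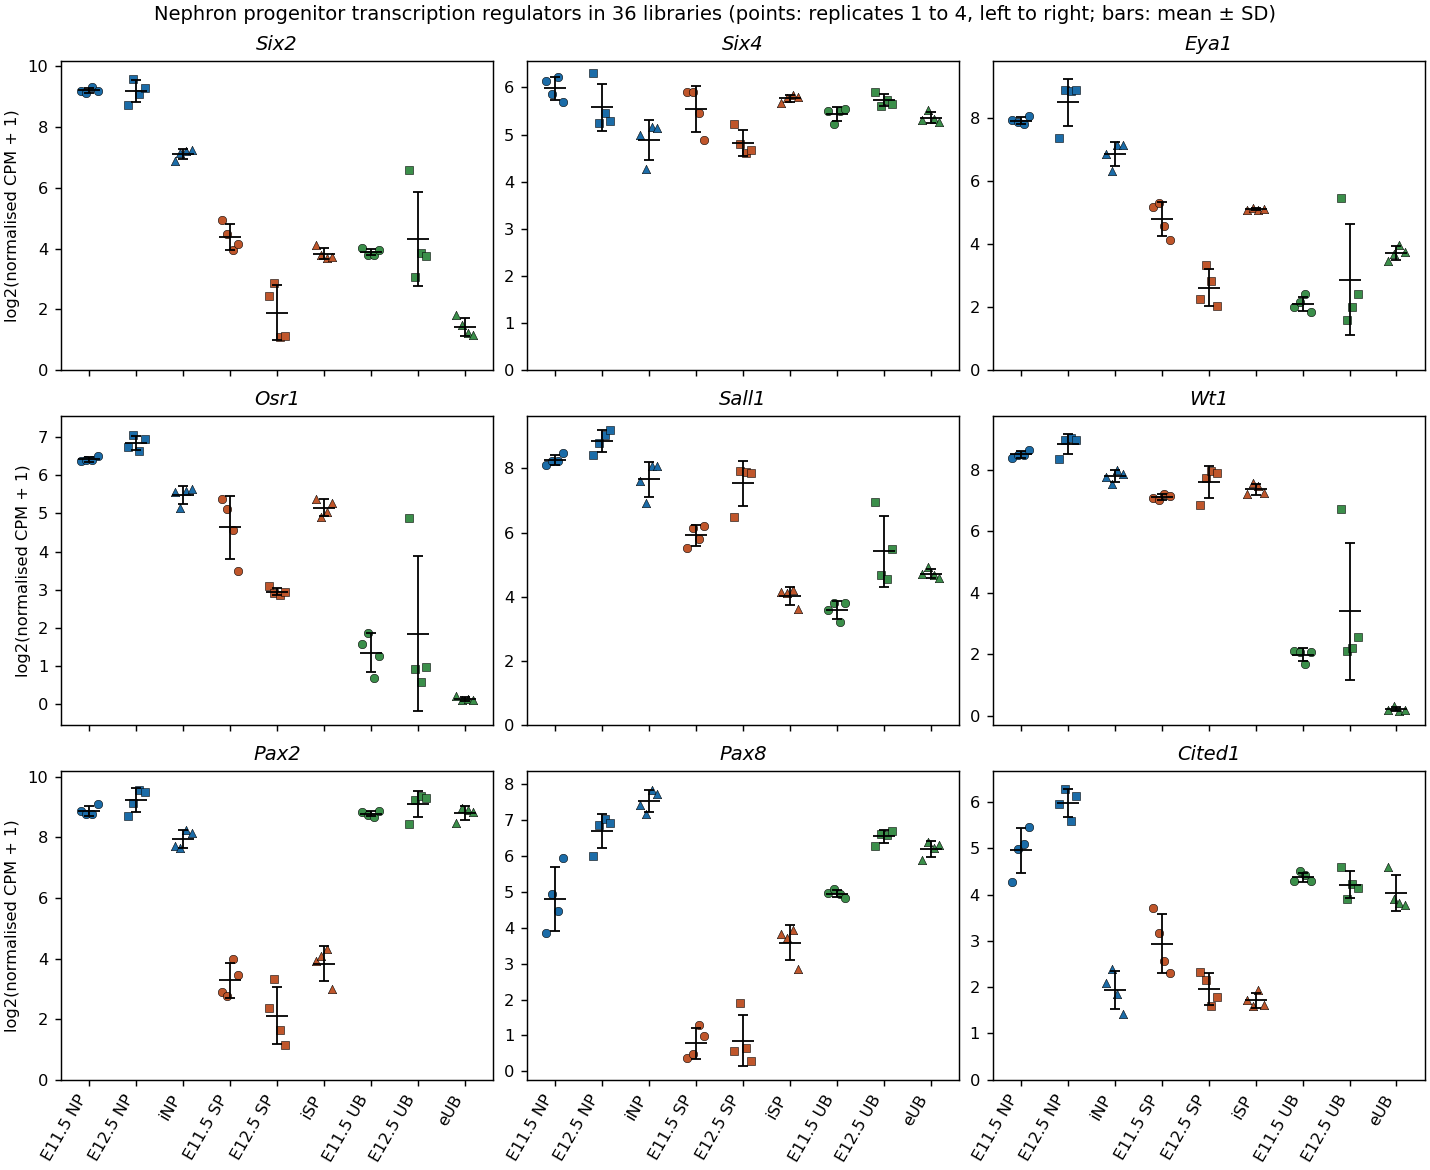
Levels of the 9 regulators in 36 libraries, as log2(normalised CPM + 1). Points are replicates 1 to 4 of each group from left to right, coloured by cell type (blue NP, orange SP, green UB) and shaped by source (circles E11.5, squares E12.5, triangles mESC-derived), and bars are mean ± SD (n = 4). *Pax8* rises from E11.5 NP to E12.5 NP to iNP, *Six2* and *Cited1* are lower in iNP, and replicate 1 of E12.5 UB is high in *Six2*, *Eya1*, *Osr1* and *Wt1*.

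*Six2* (ENSMUSG00000024134, chromosome 17, 85684277 to 85688274 of GRCm38) was the most abundant regulator of NP per kilobase of exon, at 279 normalised CPM per kb in E11.5 NP and 279 in E12.5 NP, against 114 for *Pax2*, the next, in E12.5 NP. Its levels were 579, 557, 641 and 584 normalised CPM in the 4 E11.5 NP libraries, and 422, 771, 550 and 621 in E12.5 NP. In E11.5 SP they were 29.5, 21.1, 14.5 and 16.98, and in E12.5 SP 4.39, 6.35, 1.15 and 1.19. Every NP library was far above every SP library, and the stromal level itself was lower at the later age. E11.5 UB held 15.1, 12.9, 12.9 and 14.6 normalised CPM and E12.5 UB 94.8, 7.43, 13.5 and 12.5. The 94.8 belonged to replicate 1, the library that also held stromal markers. Against E11.5 SP the difference in *Six2* was 4.82 on the log2 scale (SE 0.18, limma adjusted p = 1.6e-07) and against E11.5 UB 5.31 (SE 0.07, limma adjusted p = 9.08e-14).

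Its partner *Eya1* (chromosome 1, 14168954 to 14310235) was likewise highest in NP, but at E11.5 its SP libraries lay above its UB libraries. It was at 247, 234, 223 and 271 normalised CPM in E11.5 NP, against 16.5 to 38.7 in E11.5 SP and 2.63 to 4.31 in E11.5 UB. In E12.5 NP it was at 165, 474, 463 and 481, of which the 165 was replicate 1. *Six4* (chromosome 12, 73099609 to 73113456), a homeobox relative of *Six2*, was at 50.7 to 74.0 normalised CPM in E11.5 NP and at 28.5 to 58.9 in E11.5 SP, which overlap. In E11.5 UB it was at 36.1 to 45.3, below every E11.5 NP library (0.54, SE 0.12, limma adjusted p = 0.00182). Over the 9 groups its means spanned 27.7 to 62.8 only, and per kilobase it was among the 2 lowest of the 9 regulators in every NP group.

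Of the zinc finger genes, *Wt1* (chromosome 2, 105126529 to 105173616) was at 333 to 396 normalised CPM in E11.5 NP and 127 to 147 in E11.5 SP, and at 2.23 to 3.29 in E11.5 UB. *Sall1* (chromosome 8, 89027235 to 89044162) was at 273 to 357 in E11.5 NP and 44.5 to 73.2 in E11.5 SP. In E12.5 SP it was at 88.8, 240, 234 and 229, of which the 88.8 was replicate 1. *Osr1* (chromosome 12, 9570116 to 9581500) was at 81.8 to 89.8 in E11.5 NP, at 40.3, 33.4, 22.5 and 10.3 in E11.5 SP and at 6.22 to 7.48 in E12.5 SP. For each of these 3 genes NP libraries were above the SP libraries of the same age, and SP libraries above the E11.5 UB libraries.

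*Pax2* (chromosome 19, 44756045 to 44837871) did not separate NP from UB. Its levels in E11.5 NP were 467, 435, 435 and 544 normalised CPM and in E11.5 UB 457, 431, 406 and 469, a difference of 0.09 on the log2 scale (95% interval -0.08 to 0.26, limma adjusted p = 0.357). In SP it was at 5.84 to 14.9 at E11.5 and 1.24 to 8.99 at E12.5. *Pax8* (chromosome 2, 24420560 to 24475599) was at 13.4, 29.6, 21.0 and 60.7 in E11.5 NP and at 27.2 to 32.8 in E11.5 UB. The 4 E11.5 NP libraries thus lay on both sides of the narrow range of UB. *Cited1* (chromosome X, 102247381 to 102252181) was at 18.4, 30.8, 33.2 and 42.6 in E11.5 NP, at 18.6 to 21.6 in E11.5 UB and at 3.98 to 12.1 in E11.5 SP.

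Between E11.5 NP and SP, 8 of the 9 regulators were called, all higher in NP (43.1% of all genes tested were called, 21% higher in NP); *Six4* was not (limma adjusted p = 0.145). At E12.5 all 9 were called higher in NP (34.8% of all genes, 17% higher), from 0.75 for *Six4* (SE 0.25, limma adjusted p = 0.042) to 7.29 for *Six2* (SE 0.40, limma adjusted p = 1.4e-06), and all 9 were called also without the replicate 1 libraries. The call of *Six4* was lost without E12.5 NP replicate 3 or 4 or without E12.5 SP replicate 2, 3 or 4 (limma adjusted p from 0.0514 to 0.115), and in edgeR's test on reads recovered from the table (adjusted p = 0.0563). With replicate numbers as a block, which pair these NP and SP libraries, 9 regulators were again called, and 7961 genes in all against 4789. Against UB, 7 regulators were called at E11.5, all higher in NP (60.2% of all genes, 31.5% higher and 28.7% lower), and 6 at E12.5 (32.7%, 14.3% higher). Without the replicate 1 libraries of both E12.5 groups 7 of 8 tested were called against UB, *Six4* lower (-0.34, limma adjusted p = 0.0294) and *Pax8* higher (0.30, limma adjusted p = 0.0334) being added, while *Osr1* did not pass the filter. *Pax8* in SP and *Osr1* in E12.5 UB reached 1 normalised CPM in 1 library of each group, and *Osr1* in 3 of 4 in E11.5 UB, so these genes passed the filter through NP, where they were high. With all libraries, *Pax2* and *Pax8* were not called against UB at either age. The call of *Cited1* against E11.5 UB, of 0.58 (limma adjusted p = 0.0208), was lost without E11.5 NP replicate 4 (0.41, limma adjusted p = 0.0578) or replicate 3 (0.53, limma adjusted p = 0.0543), and without E11.5 UB replicate 1 (limma adjusted p = 0.0525) or replicate 4 (limma adjusted p = 0.0532), and in a fit of all 36 libraries (limma adjusted p = 0.065). Without E11.5 NP replicate 4, *Pax8* was called lower in NP than in UB (-0.54, limma adjusted p = 0.0363). At E12.5, leaving out NP replicate 1 brought *Six4* to -0.39 (limma adjusted p = 0.0229) and *Pax8* to 0.39 (limma adjusted p = 0.0326).

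In iNP cells 8 of the 9 regulators were lower than in E11.5 NP and *Pax8* alone was higher. All 9 were called, of 64.7% of all genes tested (35.5% higher and 29.2% lower in iNP). The median difference of the 9 was -0.94 on the log2 scale, beside 0.07 over all genes. Against E12.5 NP, a comparison that shares the 4 iNP libraries, 7 were called lower and *Pax8* higher, of 44.3% of all genes (25.6% higher, 18.7% lower), with a median of -1.29 beside 0.04. Without E12.5 NP replicate 1, 8 were again called, and *Eya1* went from -1.63 to -2.01 and *Pax8* from 0.83 to 0.60. In a fit of all 36 libraries *Wt1* was not called against E12.5 NP (limma adjusted p = 0.0822) and *Six4* was (limma adjusted p = 0.00578). The plot of differences from ex-fetu cells shows both comparisons.

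**Figure D2:**
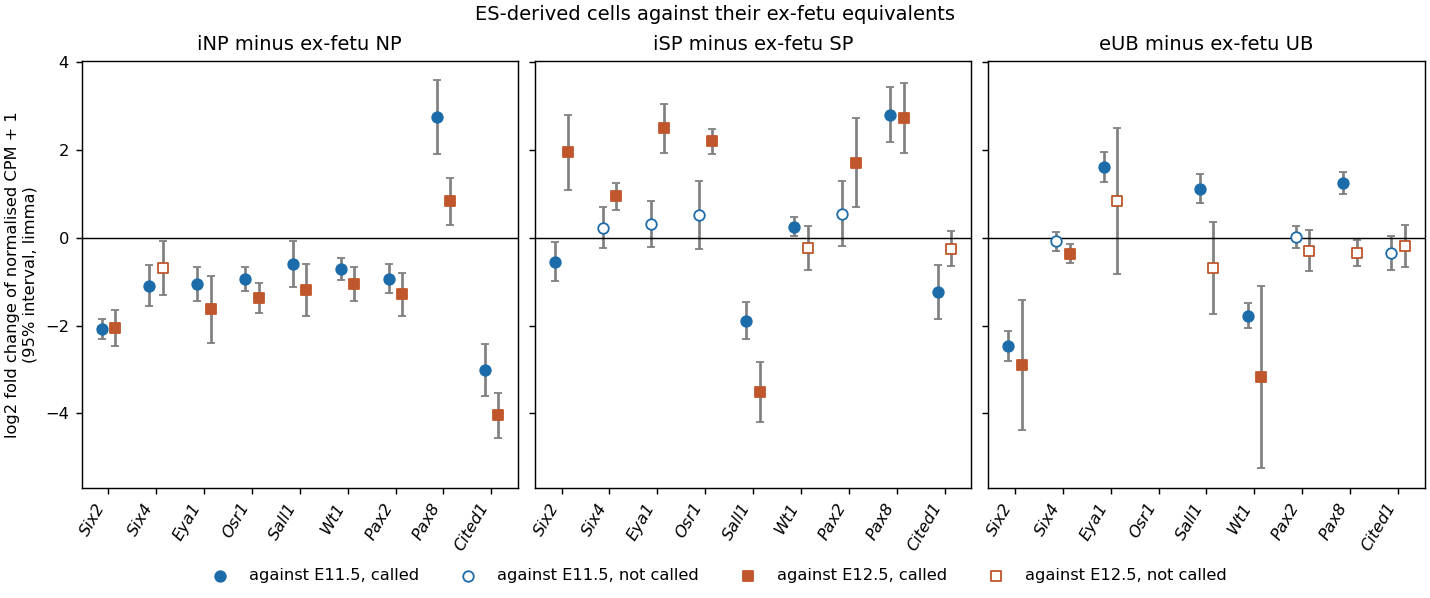
Differences in log2(normalised CPM + 1) between mESC-derived cells and ex-fetu cells of the same type, titled E11.5 (circles) or E12.5 (squares), for the 9 regulators. Bars are 95% intervals of limma (4 libraries against 4), filled symbols were called and open ones were not, and *Osr1* was not tested in the eUB panel. In iNP only *Pax8* lies above 0, and in iSP *Sall1* lies lowest.

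*Six2* was at 116, 141, 147 and 152 normalised CPM in iNP, all below the lowest of the 8 ex-fetu NP libraries (422). The fall was 2.08 on the log2 scale against E11.5 NP (difference -2.08, SE 0.10, limma adjusted p = 2.69e-07), or 4.23-fold, and 2.05 against E12.5 NP (difference -2.05, SE 0.18, limma adjusted p = 1.73e-05). It remained the most abundant of the 9 per kilobase in iNP, at 65.7 normalised CPM per kb against 46.0 for *Pax2*. No alternative setting changed the call against E11.5 NP, and the difference lay between -2.13 and -1.97 over the 15 alternatives.

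*Cited1* fell most. It was at 3.27, 4.26, 2.61 and 1.66 normalised CPM in iNP, against 18.4 to 42.6 in E11.5 NP and 46.8 to 76.5 in E12.5 NP. The difference was -3.01 from E11.5 NP (SE 0.27, limma adjusted p = 9.71e-06) and -4.04 from E12.5 NP (SE 0.23, limma adjusted p = 9.44e-07). These iNP levels overlapped those of iSP, which were 2.32, 2.01, 2.81 and 2.06, and lay under every eUB library, which were at 23.3, 13.9, 13.1 and 12.7. By group means NP thus stood highest in *Cited1* at both ages of ex-fetu kidney, while among mESC-derived cells eUB did.

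*Pax8* was at 171, 143, 228 and 213 normalised CPM in iNP, above the highest ex-fetu NP library (131, at E12.5). The difference was 2.75 from E11.5 NP (SE 0.38, limma adjusted p = 0.00015) and 0.83 from E12.5 NP (SE 0.24, limma adjusted p = 0.018). The second of these was lost without iNP replicate 3 (0.74, limma adjusted p = 0.0567) or replicate 4 (0.77, limma adjusted p = 0.0535). *Pax2* moved the other way, to 210, 201, 303 and 281 in iNP, -0.93 from E11.5 NP (SE 0.15, limma adjusted p = 0.000395) and -1.29 from E12.5 NP (SE 0.22, limma adjusted p = 0.000974). All 4 iNP libraries were lower in *Pax2* than the lowest of the 8 ex-fetu NP libraries (414).

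The other regulators fell less than *Six2* and *Cited1*, by amounts near that of *Pax2* or smaller ones. *Eya1* was at 115.3, 80.3, 142 and 142 normalised CPM in iNP (difference -1.05 from E11.5 NP, SE 0.17, limma adjusted p = 0.000471), and *Six4* at 30.8, 18.2, 34.7 and 34.1 (-1.09, SE 0.21, limma adjusted p = 0.00116). *Osr1* was at 46.1, 34.4, 47.4 and 48.5 (-0.94, SE 0.12, limma adjusted p = 8.39e-05), *Wt1* at 215, 185, 253 and 229 (-0.71, SE 0.11, limma adjusted p = 0.000331) and *Sall1* at 194, 119, 266 and 269 (-0.59, SE 0.24, limma adjusted p = 0.0478). For all 5 the iNP libraries were below the 4 of E11.5 NP. Replicate 2 was the lowest iNP library in all 5, and it was also lowest in *Itga8*, the gene of the sorted protein, at 75.5 normalised CPM against 210 to 230 in the others. Without it the difference in *Sall1* was -0.34 and still called. The call of *Sall1* was lost in 9 of 15 alternatives, among them the fits without any 1 of the 4 E11.5 NP libraries (limma adjusted p from 0.0669 to 0.119) or without iNP replicate 1 (limma adjusted p = 0.0964). A fit of all 36 libraries kept 5 of the 9 calls and lost *Eya1* (limma adjusted p = 0.0525), *Osr1* (0.104), *Sall1* (0.131) and *Wt1* (0.229).

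Genes of the sorted proteins and markers of other cells moved beside these differences, and their part in them was not tested. *Itga8* was at 212, 75.5, 210 and 230 normalised CPM in iNP and 86.0 to 118 in E11.5 NP, which was not called (0.72, limma adjusted p = 0.0698). *Pdgfra* was at 44.9, 17.7, 33.9 and 30.0 in iNP against 1.98 to 3.04 in E11.5 NP (3.15, limma adjusted p = 4.08e-06), though at 337 to 350 in E11.5 SP. Summed over their lists, stromal markers were at 860 to 1256 normalised CPM in iNP and 669 to 698 in E11.5 NP, endothelial markers at 77.5 to 124 and 19.2 to 50.9, and ureteric bud markers at 132 to 166 and 55.1 to 78.4. No marker of the 3 lists was at 0 in any iNP or E11.5 NP library.

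Since *Pax8* rose while *Pax2* fell, their ratio was taken within each library, where it does not depend on scaling. It was 0.710 to 0.815 in iNP, 0.153 to 0.203 in E12.5 NP and 0.0286 to 0.111 in E11.5 NP, with no overlap between the 3 groups. As the ratio was formed after the levels of both genes were seen, its values are a description, with no test. The sorted stroma of each source had ratios near those of its NP: 0.0471 to 0.096 in E11.5 SP, 0.117 to 0.303 in E12.5 SP and 0.757 to 0.932 in iSP. The ureteric cells did not share the high ratio, at 0.0581 to 0.0763 in E11.5 UB, 0.143 to 0.221 in E12.5 UB and 0.153 to 0.169 in eUB. *Pax8* in E11.5 and E12.5 SP was at 0.229 to 2.72 normalised CPM, so those ratios rest on low counts.

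**Figure D3:**
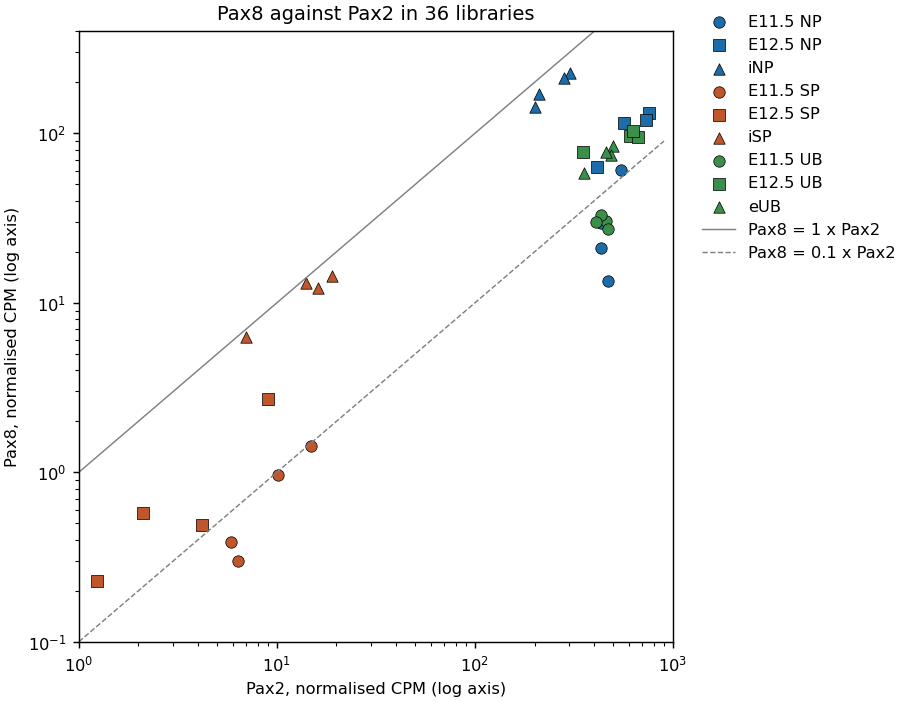
*Pax8* against *Pax2* in the 36 libraries, in normalised CPM on 2 log axes, coloured by cell type (blue NP, orange SP, green UB) and shaped by source (circles E11.5, squares E12.5, triangles mESC-derived). Lines mark *Pax8* equal to *Pax2* and to 0.1 of *Pax2*. The iNP and iSP libraries lie just under the upper line, with ratios of 0.710 to 0.932, while all other libraries lie at 0.303 or less.

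In iSP cells the regulators did not move as one, and the outcome depended on the age of the ex-fetu SP. Against E11.5 SP, 5 of 9 were called, *Wt1* and *Pax8* higher and *Six2*, *Sall1* and *Cited1* lower, of 67.6% of all genes (35.5% higher, 32.1% lower). Against E12.5 SP, which shares the iSP libraries, 7 were called, *Sall1* lower and *Six2*, *Six4*, *Eya1*, *Osr1*, *Pax2* and *Pax8* higher, of 62.1% of all genes (33.3% higher, 28.8% lower). Without E12.5 SP replicate 1, *Wt1* was also called, lower in iSP (-0.49, limma adjusted p = 0.00148). *Sall1* and *Pax8* were the 2 that kept both their direction and their call against both ages.

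*Sall1* was at 16.9, 16.2, 17.7 and 11.2 normalised CPM in iSP, under every E11.5 SP library (44.5, 69.3, 54.2 and 73.2) and every E12.5 SP library (88.8 and more). The difference was -1.89 from E11.5 SP (SE 0.18, limma adjusted p = 1.63e-05) and -3.51 from E12.5 SP (SE 0.31, limma adjusted p = 1.07e-05). *Pax8* was at 13.1, 12.2, 14.4 and 6.29 in iSP, above every ex-fetu SP library, a difference of 2.81 from E11.5 SP (SE 0.27, limma adjusted p = 1.59e-05). It passed the filter through iSP, as only 1 SP library of each age reached 1 normalised CPM. *Wt1*, at 146, 187, 176 and 150, was 0.25 above E11.5 SP (SE 0.10, limma adjusted p = 0.0438). That call was lost without iSP replicate 2 (limma adjusted p = 0.129) or 3 (0.123), without E11.5 SP replicate 1 (0.085) or 2 (0.0985), and in edgeR's test (adjusted p = 0.0671). Likewise *Six2*, at 16.3, 13.0, 12.04 and 12.3 in iSP, was 0.54 below E11.5 SP on the log2 scale (difference -0.54, SE 0.20, limma adjusted p = 0.0362), and its call was lost without E11.5 SP replicate 1 (-0.36, limma adjusted p = 0.0707) or 2 (0.0727), and without iSP replicate 2 (0.0752), 3 (0.0877) or 4 (0.0861). Without iSP replicate 4, the lowest in *Pax2* and *Pax8*, *Pax2* was called higher in iSP than in E11.5 SP (0.83, limma adjusted p = 0.0338). A fit of all 36 libraries left 3 of the 5 calls, without *Six2* (limma adjusted p = 0.268) and *Wt1* (0.681).

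The iNP and iSP cells, sorted from the same cultures, were less far apart in most of the regulators than ex-fetu NP and SP. Between iNP and iSP 6 regulators were called higher in iNP and *Six4* lower, of 30.7% of all genes (16.5% higher, 14.2% lower). *Osr1*, at 28.9 to 40.5 normalised CPM in iSP and 34.4 to 48.5 in iNP, was not called (0.33, 95% interval 0.01 to 0.65, limma adjusted p = 0.11), nor was *Cited1* (0.22, 95% interval -0.22 to 0.67, limma adjusted p = 0.428). Without iNP replicate 2, *Osr1* was called (0.44, limma adjusted p = 0.0048). *Six4* was at 49.9 to 56.1 in iSP, above every iNP library (-0.88, SE 0.18, limma adjusted p = 0.00529). *Wt1* differed by 0.42 (SE 0.12, limma adjusted p = 0.0252), and its call was lost without iNP replicate 1, 3 or 4 (limma adjusted p 0.0579, 0.0681 and 0.0681) and without iSP replicate 1 or 4 (0.0727 and 0.0785), and in a fit of all 36 libraries (0.59).

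Tested as a difference of differences, NP minus SP was lower in value in mESC-derived than in E11.5 cells for 7 regulators and higher for *Sall1*, with 29.3% of all genes called (11.9% below 0, 17.4% above). The change was -1.79 for *Cited1* (SE 0.41, limma adjusted p = 0.0032), -1.54 for *Six2* (SE 0.23, limma adjusted p = 8.76e-05), -1.49 for *Pax2*, -1.46 for *Osr1*, -1.37 for *Eya1*, -1.33 for *Six4* and -0.96 for *Wt1* (SE 0.15, limma adjusted p = 0.000117). For 6 of the 7 the cell types were nearer to each other, while *Six4* changed sign, from 0.44 in E11.5 cells to -0.88 in mESC-derived cells. For *Sall1* it was 1.29 (SE 0.32, limma adjusted p = 0.00544), with the lowest *Sall1* levels of any mesenchymal group in iSP. For *Pax8*, which was 2.75 higher in iNP and 2.81 higher in iSP than in the E11.5 cells, the change was -0.07 (95% interval -1.13 to 1.001, limma adjusted p = 0.944). This value rests on the pseudocount of 1, since *Pax8* was at 0.300 to 1.43 normalised CPM in E11.5 SP. As ratios of mean normalised CPM the rises were 6.05-fold in iNP and 14.9-fold in iSP. With E12.5 cells as the comparator, 8 regulators were called, *Pax8* among them (-1.90, limma adjusted p = 0.00573) and *Wt1* no longer (-0.80, limma adjusted p = 0.0642). Without the replicate 1 libraries of E12.5 all 9 were called. In a fit of all 36 libraries 4 of the 8 calls remained, and *Six2* (limma adjusted p = 0.0563), *Eya1* and *Osr1* (both 0.137) and *Wt1* (0.363) were lost.

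**Figure D4:**
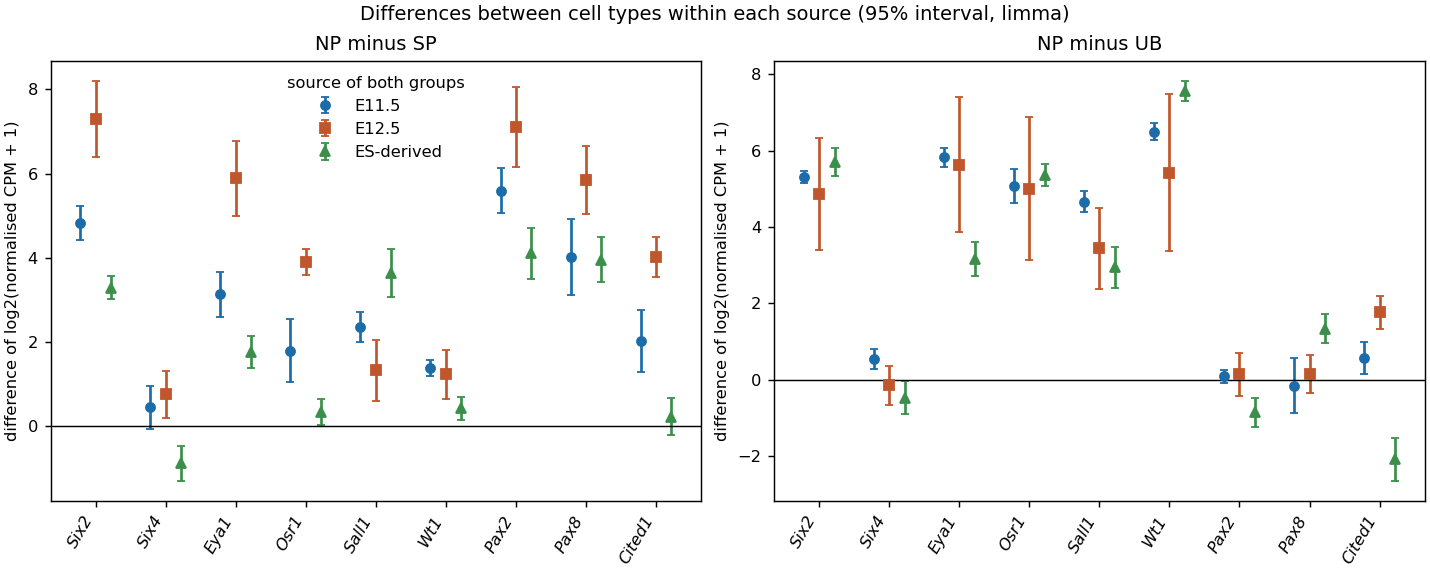
Differences between cell types of the same source in log2(normalised CPM + 1), NP minus SP on the left and NP minus UB on the right, for E11.5 (circles), E12.5 (squares) and mESC-derived cells (triangles). Bars are 95% intervals of limma (4 libraries against 4). On the left the mESC-derived values are below both ex-fetu values except in *Sall1*. *Pax8* is within 0.07 of its E11.5 value on this scale. As ratios of mean normalised CPM, its NP level was 40.4 times that of SP at E11.5 and 16.4 times in mESC-derived cells. On the right E12.5 intervals are wide in the genes that are high in UB replicate 1.

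In eUB cells 3 of the regulators of the mesenchyme were near or under the limit of detection, or at a small part of their level in E11.5 UB. *Osr1* was at 2 reads in each of the 4 eUB libraries, under the limit of detection, and was not tested. *Wt1* was at 2, 7, 3 and 4 reads, or 0.129 to 0.248 normalised CPM, against 2.23 to 3.29 in E11.5 UB. *Six2* was at 2.52, 1.77, 1.33 and 1.24 normalised CPM, against 12.9 to 15.1 in E11.5 UB (-2.47, SE 0.15, limma adjusted p = 9.17e-07). The level of each of these 3 genes was below that of every E11.5 UB library.

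Other regulators were as high in eUB as in E11.5 UB or higher. *Pax2* was at 354, 496, 484 and 461 normalised CPM, and its difference from E11.5 UB was 0.02 (95% interval -0.23 to 0.26, limma adjusted p = 0.917). *Eya1*, at 10.1, 11.8, 14.9 and 12.4, was above every E11.5 UB library (1.62, SE 0.15, limma adjusted p = 1.21e-05). So were *Sall1*, at 23.1 to 29.4 against 8.20 to 12.9 (1.13, SE 0.14, limma adjusted p = 9.49e-05), and *Pax8*, at 58.4, 83.7, 74.2 and 78.1 against 27.2 to 32.8 (1.25, SE 0.11, limma adjusted p = 1.03e-05). Of the 8 regulators tested, 3 were called higher and 2 lower in eUB, with 60.5% of all genes called (32.1% higher, 28.5% lower). One of the lower calls was *Wt1*, which passed the filter only through E11.5 UB, where it was high. *Cited1*, high in eUB replicate 1 (23.3), was called lower when that library was left out (-0.55, limma adjusted p = 0.000111).

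Against E12.5 UB, *Six2*, *Six4* and *Wt1* were called lower in eUB and none of the 8 tested was called higher, of 44.4% of all genes (23.3% higher, 21.2% lower). The call of *Six4* was lost in a fit of all 36 libraries (limma adjusted p = 0.151). This comparison rests on E12.5 UB replicate 1. Without it 5 regulators were called: *Eya1* was higher in eUB (1.71, limma adjusted p = 0.000223), and *Six2* (-2.14), *Six4* (-0.31), *Pax2* (-0.51) and *Pax8* (-0.43) lower, while *Wt1*, which in this comparison passed the filter only with all 4 E12.5 UB libraries, was no longer tested.

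E12.5 UB replicate 1 held 94.8 normalised CPM of *Six2*, 43.8 of *Eya1*, 28.4 of *Osr1*, 122 of *Sall1*, 104 of *Wt1* and 73.7 of *Itga8*. The other 3 libraries held 7.43 to 13.5, 2.04 to 4.35, 0.503 to 0.966, 22.4 to 44.2, 3.27 to 4.97 and 1.46 to 2.37 of the same genes. It was lowest in *Pax2*, at 349 against 608 to 665. The library was thus high in NP and stromal genes together and low in ureteric ones, with the summed level of 22 other nephron progenitor genes at 1422 against 559 to 613.

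Between mESC-derived cells, iNP were above eUB in *Six2*, *Eya1*, *Osr1*, *Sall1*, *Wt1* and *Pax8* and below them in *Pax2* and *Cited1*, while *Six4* was not called (52.2% of all genes called, 26.3% higher and 25.8% lower in iNP). *Osr1* and *Wt1*, under 1 normalised CPM in every eUB library, passed the filter only through iNP, where they were high. Without iNP replicate 2, *Six4* was called lower in iNP (-0.26, limma adjusted p = 0.0342). The lines and the protocols of the 2 cell types differ, so cell type, line and protocol cannot be told apart. *Cited1* was 2.09 lower on the log2 scale in iNP than in eUB (difference -2.09, SE 0.25, limma adjusted p = 7.83e-05) but 0.58 higher in E11.5 NP than in E11.5 UB. As a difference of differences from E11.5 cells, NP minus UB changed by -2.66 for *Cited1* (SE 0.34, limma adjusted p = 8.58e-06), -2.67 for *Eya1* (SE 0.24, limma adjusted p = 1.44e-07), -1.72 for *Sall1*, -1.01 for *Six4* and -0.95 for *Pax2*, and by 1.49 for *Pax8* and 1.06 for *Wt1*. These 7 were called, beside 47.1% of all genes (22.3% below 0, 24.9% above). *Wt1*, at 2 to 7 reads per eUB library, moved over 1.5 times: its change was 3.39 in edgeR's test, and 2.14 and not called with E12.5 cells as the comparator (limma adjusted p = 0.118). *Sall1* and *Six4* were also no longer called with that comparator, at -0.50 (limma adjusted p = 0.557) and -0.32 (limma adjusted p = 0.479). In all 4 were called with it, and without the E12.5 replicate 1 libraries 7, of which *Osr1* was one, at -0.70 (limma adjusted p = 0.0184). Since eUB held 2 reads of *Osr1* per library, its value turned with the pseudocount: against E11.5 it was 0.28 with a pseudocount of 1 (limma adjusted p = 0.406) and 2.08 with 0.1 (limma adjusted p = 0.000755). *Six2* in the same way was 0.39 (limma adjusted p = 0.086) or 0.90 (limma adjusted p = 0.00447), and was called without iNP replicate 1 (0.47, limma adjusted p = 0.0426) or eUB replicate 1 (0.52, limma adjusted p = 0.00618), as was *Osr1* without E11.5 UB replicate 3 (0.50, limma adjusted p = 0.0496). A fit of all 36 libraries lost *Wt1* (limma adjusted p = 0.243) and *Pax2* (0.0879).

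Between the 2 ages of ex-fetu NP 2 of the 9 regulators were called, and both calls were lost when any 1 of 5 libraries was left out. *Pax8*, at 63.4, 114.8, 131 and 120 normalised CPM in E12.5 NP, was above every E11.5 NP library (1.91, SE 0.41, limma adjusted p = 0.028), and *Cited1*, at 60.6, 76.5, 46.8 and 68.5, likewise (1.03, SE 0.24, limma adjusted p = 0.0386). These 2 were the only calls, all genes standing at 6.34% (2.74% higher and 3.59% lower). Neither was called without E11.5 NP replicate 1, 2 or 3, or without E12.5 NP replicate 3 or 4 (limma adjusted p from 0.059 to 0.111). The differences in these fits stayed near those of all libraries, at 1.59 to 1.96 for *Pax8* and 0.80 to 1.16 for *Cited1*, and *Cited1* was also lost without E12.5 NP replicate 2 (limma adjusted p = 0.058). Without E12.5 NP replicate 1, 8 were called, *Six4* lower (-0.65) and *Eya1* (0.96), *Osr1* (0.46), *Sall1* (0.74), *Wt1* (0.49), *Pax2* (0.53), *Pax8* and *Cited1* higher, with 2249 genes called in all against 850. Without E12.5 NP replicate 2, *Osr1* was called higher (0.36, limma adjusted p = 0.0499). *Six2* was not called in either fit and differed by -0.03 (95% interval -0.40 to 0.34, limma adjusted p = 0.936).

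Among SP, *Six2*, *Eya1* and *Osr1* were lower and *Sall1* higher at E12.5 than at E11.5. These were 4 calls of 8 tested, beside 8.52% of all genes (3.73% higher, 4.8% lower). Ureteric bud markers moved with them, 8 of 10 tested being lower at E12.5 and none higher (median -1.85), with sums of 152 to 344 normalised CPM at E11.5 and 92.6 to 126 at E12.5, and their part in these differences was not tested. *Eya1* was at 3.85, 9.11, 6.17 and 3.12 normalised CPM in E12.5 SP and at 35.8, 38.7, 23.0 and 16.5 in E11.5 SP (-2.18, SE 0.33, limma adjusted p = 0.00655). The E11.5 SP libraries differed among themselves: *Osr1*, *Six4* and *Cited1* were highest in replicate 1 and lowest in replicate 4. *Osr1* was no longer called without E11.5 SP replicate 1, 2 or 3 or E12.5 SP replicate 3 or 4 (limma adjusted p from 0.0511 to 0.0631), and *Sall1* without E11.5 SP replicate 1 or 3 or E12.5 SP replicate 3 or 4 (from 0.0518 to 0.0585). Without E12.5 SP replicate 1, *Six4*, *Wt1* and *Cited1* were called as well, 7 in all. *Six4* (limma adjusted p = 0.0169) and *Cited1* (0.0332) were called lower without E11.5 SP replicate 4, and *Pax2* (0.0483) without E12.5 SP replicate 2.

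In UB, *Sall1* and *Pax8* were higher in the libraries titled E12.5 (26.5% of all genes called, 14.2% higher and 12.3% lower). *Pax8* was at 77.2, 96.6, 95.4 and 104 normalised CPM, above every library titled E11.5 (1.60, SE 0.10, limma adjusted p = 4.3e-05). *Sall1* differed by 1.82 (SE 0.46, limma adjusted p = 0.0185), or by 1.31 without E12.5 UB replicate 1 (limma adjusted p = 0.000296), and was not called without E11.5 UB replicate 3 (1.69, limma adjusted p = 0.0501). Without E12.5 UB replicate 1, 5 regulators were called, with *Pax2* (0.52) and *Six4* (0.23) higher and *Cited1* lower (-0.29, limma adjusted p = 0.0353). The direction of these differences in time cannot be told apart, since titles and cell sources disagree.

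Other genes of the nephron progenitor programme were also lower in iNP for the most part. The counts of this list and of those that follow stand beside 64.7% of all genes called in iNP against E11.5 NP (35.5% higher, 29.2% lower). Of 22 such genes, 21 were tested between iNP and E11.5 NP, and 14 were called lower and 5 higher, with a median of -0.91 beside 0.07 over all genes. The largest falls were those of *Spock2* (-3.46), which encodes a matrix proteoglycan, and *Rspo1* (-2.70), which encodes a secreted enhancer of Wnt signals. The largest rise among them was that of *Fgf9* (2.65), a growth factor of progenitor maintenance.

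Among relatives of the 9 regulators, 17 of 20 were in the table, and 15 were tested between iNP and E11.5 NP, with 7 called higher and 5 lower (median 0.31). The largest differences were in *Pax3* (3.57), *Eya2* (-3.45) and *Pax7* (2.98). *Pax3* and *Pax7* passed the filter only through iNP, where they were high. *Pax3*, a paired-box gene of the dorsal neural tube and somites, was at 15.6 to 19.98 normalised CPM in iNP and at most 2.26 in ex-fetu NP. *Pax7*, with a like range of tissues, was at 6.23 to 8.26 in iNP and at most 0.0853 in ex-fetu NP. *Eya2*, a co-activator related to *Eya1*, went from 55.1 to 89.8 in E11.5 NP to 5.26 to 5.77 in iNP.

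Genes of the early nephron, which mark progenitors that have begun to turn epithelial, mostly rose in iNP. Of 12, 10 were called higher than in E11.5 NP and none lower (median 1.68 beside 0.07 over all genes), and 6 were called higher than in E12.5 NP and none lower (median 0.84 beside 0.04, with 25.6% of all genes higher and 18.7% lower). Those higher than in E11.5 NP included *Lhx1* (3.85, limma adjusted p = 0.000393) and *Dll1* (3.35, limma adjusted p = 2.31e-07). *Lhx1*, a homeobox gene of the renal vesicle, was at 0.117 to 10.9 normalised CPM in E11.5 NP, 20.9 to 39.9 in E12.5 NP and 23.1 to 60.4 in iNP. These genes are not particular to the nephron in these data: their summed level was 369 to 604 normalised CPM in E11.5 NP, 747 to 915 in E12.5 NP and 1191 to 1465 in iNP, but 1165 to 1290 in E11.5 UB, where *Lhx1* was at 64.3 to 85.2. *Wnt4*, the signal that drives the change to epithelium, was named after its value was seen and was not called (0.22, limma adjusted p = 0.315). NP minus SP in these genes was greater in mESC-derived than in E11.5 cells for 9 of 12 and smaller for 1, beside 29.3% of all genes called (17.4% above 0, 11.9% below).

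Marker lists of other cells completed the picture in iNP against E11.5 NP. Of 11 ureteric bud markers tested 8 were called higher and none lower (median 1.07), led by *Cdh1* (2.37), *Tfap2b* (2.12) and *Elf3* (1.81). Of 12 stromal markers 7 were higher and 4 lower (median 0.78), led by *Pdgfrb* (3.99), *Col3a1* (3.61) and *Pdgfra*, and *Foxd1*, named after its value was seen, fell (-2.94). All 10 endothelial markers were higher (median 1.35), led by *Kdr* (2.10), *Tek* (2.03) and *Emcn* (1.65), with *Pecam1*, the gene of CD31, at 0.67. *Tfap2b* and *Tek* reached 1 normalised CPM in 1 E11.5 NP library each and so passed the filter through iNP, where they were high. The ureteric bud markers of iNP, summed, were far under the level of ureteric cells, at 132 to 166 normalised CPM against 3388 to 3729 in eUB, while the stromal markers, at 860 to 1256, stood against 4838 to 5016 in iSP. *Epcam* was at 21.9 to 33.0 normalised CPM in iNP against 588 to 684 in eUB, and *Ret* at 6.43 to 11.04 against 420 to 498.

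The same lists were read in iSP against E11.5 SP, where the median over all genes was 0.04 and 67.6% were called (35.5% higher, 32.1% lower). Of 19 other nephron progenitor genes tested, 10 were called higher and 3 lower (median 0.77), with *Meox1* at 3.32 and *Robo2* at -2.47. Of 12 stromal markers 5 were higher and 6 lower (median -0.48), and the largest differences were falls in *Foxd1* (-4.64), *Tbx18* (-2.58) and *Tcf21* (-1.83), which encode transcription factors of the stroma. Of 12 relatives tested 6 were higher and 1 lower (median 0.35), led by *Pax1* (3.91), which reached 1 normalised CPM in 1 E11.5 SP library and passed the filter through iSP. Of 11 ureteric bud markers 2 were higher and 6 lower (median -0.74), with *Ret* at -3.66, a gene that passed the filter through E11.5 SP. Of 11 early nephron genes 3 were higher and 5 lower (median -0.16), and of 10 endothelial markers 6 were higher and 1 lower (median 0.92).

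In eUB against E11.5 UB, with a median of 0.02 over all genes and 60.5% of them called, 5 of 15 other nephron progenitor genes were called higher and 4 lower (median 0.26), a share near that of all genes. *Itga8*, the sort gene of NP, had the largest difference at 2.67 and passed the filter only through eUB, having 9.76 to 10.4 normalised CPM in eUB and 0.402 to 0.982 in E11.5 UB. Among 12 ureteric bud markers 3 were higher and 5 lower (median -0.15), led by *Tfap2b* (-4.29), *Calb1* (-3.85) and *Wnt9b* (-2.19). Of 11 relatives 4 were higher and 3 lower (median 0.15), of 11 early nephron genes 3 and 4 (median -0.11), of 9 stromal markers 5 and 2 (median 0.44) and of 7 endothelial markers 1 and 4 (median -0.68).

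Some of the regulators followed each other across the 9 groups. Over the 9 group means of log2(normalised CPM + 1), Pearson's r was 0.93 between *Osr1* and *Wt1*, 0.89 between *Pax2* and *Pax8* and 0.88 between *Six2* and *Eya1*, while *Pax2* and *Wt1* gave -0.37. These values are descriptions over 9 means that share libraries and scaling. Among 3953 genes with a range of at least 2 on the log2 scale, with the 9 regulators then set aside, those most like *Six2* were *Tcf24* (r = 0.97), *Tm6sf1* (0.97) and *Actn3* (0.96). *Actn3*, which encodes an actin-binding protein of fast muscle fibres, was at 123 normalised CPM in E11.5 NP, 75.8 in E12.5 NP and 34.7 in iNP, and at most 6.25 in any SP or UB group mean. *Wt1* was best matched by *Tns2* (0.99), *Pax2* by *Espn* (0.99), *Sall1* by *Pla2g7* (0.97), *Osr1* by *Zfp516* (0.97), *Eya1* by *Plcd3* (0.97), *Cited1* by *Glt28d2* (0.96) and *Pax8* by *Fcho1* (0.95). For *Six4* the best match was *Arntl* at 0.69. The group means of *Six4* ran from 4.82 to 5.98 only, less than the range of 2 asked of the genes searched. Genes as flat as *Six4* were thus not searched, so whether it has a close match cannot be told.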

How the data were processed

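RNA from sorted cells of 36 samples was sequenced. The authors used Cutadapt for trimming and STAR for alignment, and deposited 1 signal per gene and sample, CPM scaled with edgeR factors. The build is written as GRCh38 in the methods, yet the gene IDs are of mouse, and 22642 of 22761 are in GENCODE on GRCm38. The strand setting of the counting was not given in the sources used here. A further deposited table was not used, since it holds the authors' own comparisons (log2 fold changes, p-values and false discovery rates).

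Whole reads could be recovered from the deposited signal, 100% of values lying within 1e-06 of a whole number. Depth was 13.0 to 52.5 M reads on genes. Replicates correlated at r of 0.977 to 0.998 across genes, and no pair agreed within sampling noise. A sample pools embryos or embryoid bodies, and p-values measure the spread between such samples.

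Differences were tested with limma 3.58.1 (R 4.3.3) on log2(CPM + 1), for genes at 1 normalised CPM or more in at least 4 libraries of a fit, with Benjamini-Hochberg adjustment over all genes tested. The log2(CPM + 1) scale understates the change of low genes. The alternatives were a pseudocount of 0.1, no filter, a filter at 5 CPM, upper-quartile scaling, edgeR 4.0.16 (quasi-likelihood) on the recovered reads, a fit of all 36 libraries, the replicate number as a block, E12.5 comparators, and each library left out in turn. Leaving out the E12.5 replicate 1 libraries together was chosen after seeing the data. Scripts were tested on simulated data. Python 3.11.15, scipy 1.17.1 and matplotlib 3.10.9 were used for the other values and the plots.

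The 9 genes, the other lists (22 nephron progenitor genes, 20 relatives of the 9, 12 early nephron genes, 12 ureteric bud, 12 stromal and 10 endothelial markers) and the tests were chosen with earlier results of these data known. Named were the 9 genes, the 3 called genes with the largest difference of each other list, the genes of sorted proteins, and the genes most like the 9 over group means (3 for *Six2*, 1 for each other). Some genes that this rule names are not reported here. Same-numbered E12.5 NP and SP libraries deviated together (r 0.543 to 0.700, 4 of 4 best with their own number), so these numbers were taken as pairs. In the other comparisons the numbers were not shown to pair samples. Promoter windows were those of RefSeq whose start lay nearest to the gene's start in GENCODE.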

Additional observations from a re-analysis of the deposited data

Results flagged for a closer look

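In 81 sets of 4 libraries (9 genes in 9 groups), 10 held a library far from the other 3 by Dixon's test. Chance alone gives about 1 in 20 independent sets. The 9 genes were read in the same libraries, so 1 odd library can enter several sets, and no excess can be read from the count. Of the 10, 6 were replicate 1 of an E12.5 group. In E12.5 UB replicate 1 *Osr1* was at 28.4 normalised CPM, *Wt1* at 104 and *Pax2* at 349, the first 2 high and the last low. In E12.5 NP replicate 1 *Eya1* was low at 165 and *Wt1* at 326, and in E12.5 SP replicate 1 *Sall1* was low at 88.8. The other 4 were *Six4* in E11.5 UB replicate 2 (36.1, low), *Wt1* in E11.5 UB replicate 3 (2.23, low), *Osr1* in iNP replicate 2 (34.4, low) and *Cited1* in eUB replicate 1 (23.3, high).

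NP minus SP, on the scale log2(normalised CPM + 1), differed between mESC-derived and E11.5 cells by the test of the difference itself for 8 genes: *Six2* (-1.54), *Six4* (-1.33), *Eya1* (-1.37), *Osr1* (-1.46), *Sall1* (1.29), *Wt1* (-0.96), *Pax2* (-1.49) and *Cited1* (-1.79). NP minus UB differed in the same way for 7: *Six4* (-1.01), *Eya1* (-2.67), *Sall1* (-1.72), *Wt1* (1.06), *Pax2* (-0.95), *Pax8* (1.49) and *Cited1* (-2.66). In the second set the eUB line and protocol differ from those of iNP and cannot be told apart from the cell type.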

How the results depend on the processing

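Of 1094 values of the 9 genes under alternatives that kept all libraries of a group or left out the E12.5 replicate 1 libraries together, 1031 kept their direction and their side of the threshold, 31 lost a call, 24 gained one and 8 changed direction. With 1 library left out, 1227 of 1324 kept both, 51 lost a call, 30 gained one and 16 changed direction. None of the values that changed direction had been called. Of the counts of called regulators, 118 stayed within 1.5 times, and those that did not are given here. A fit of all 36 libraries called 5 of 9 in iNP against E11.5 NP (9 in the comparison's own fit), 3 in iSP against E11.5 SP (5), 7 in E12.5 against E11.5 SP (4) and 4 for NP minus SP between mESC-derived and E11.5 cells (8). For E12.5 against E11.5 NP the count of 2 became 1 with no filter and 4 with upper-quartile scaling, and for NP minus UB it fell from 7 to 4 with E12.5 as comparator. The cause of these changes was not tested. With 1 library left out, counts ran from 3 to 5 for iSP against E11.5 SP, from 2 to 5 for eUB against E12.5 UB, and for E12.5 against E11.5 from 0 to 8 in NP, 2 to 7 in SP and 1 to 5 in UB. Calls over all genes moved with them, from 147 to 2249 in NP, 392 to 2889 in SP and 2332 to 5982 in UB.

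The values that changed direction were near 0 or rested on E12.5 replicate 1. *Pax2* in eUB against E11.5 UB was -0.039 with upper-quartile scaling, -0.0080 in edgeR and -0.037 to 0.12 with 1 library left out. *Eya1* in eUB against E12.5 UB was -0.13 in edgeR. *Six2* in E12.5 against E11.5 NP was 0.018 with upper-quartile scaling and -0.17 to 0.12 with 1 library left out. In E12.5 against E11.5 UB, *Six2* ran from -0.33 to 0.84 and *Eya1* from -0.098 to 1.20, and *Pax2* in E12.5 NP against UB from -0.076 to 0.31, with 1 library left out, the lowest of each being without E12.5 UB replicate 1. *Pax8* in E11.5 NP against UB was 0.029 in edgeR and -0.54 to 0.16 with 1 library left out. For NP minus SP, *Pax8* was 0.056 with upper-quartile scaling and -0.38 to 0.32 with 1 library left out. For NP minus UB with the E12.5 comparator, its replicate 1 libraries left out, *Six2* was -0.059 and *Osr1* -0.70.

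Taking replicate numbers as a block, the counts were 9 in iNP against E11.5 NP, 4 in iSP against E11.5 SP and 5 in eUB against E11.5 UB. Outside E12.5 NP against SP the samples were not shown to share more than a number. For iNP and iSP, which came from the same cultures, the sources used here do not say that a number marks 1 culture, and same-numbered libraries gave r of -0.29 to 0.30 (0 of 4 best with their own number). In these comparisons the block called *Six4* in iNP against E12.5 NP (adjusted p = 0.0369), *Pax8* in eUB against E12.5 UB (0.0137), *Sall1* in E12.5 against E11.5 NP (0.0329) and *Cited1* in E12.5 against E11.5 SP (0.0284), and no longer *Wt1* in iSP against E11.5 SP (0.0622) or in iNP against iSP (0.0618), all by limma. It changed no other call of the 9. Over all genes, calls for E12.5 against E11.5 went from 850 to 469 (filter at 5 CPM) or 1528 (all libraries) in NP, from 1162 to 762 or 2987 in SP and from 3648 to 2365 (block) in UB, and for NP minus UB from 7143 to 4540 with E12.5 as comparator. Upper-quartile scaling moved the median of all genes by 0.11 in iNP against E11.5 NP, 0.19 in iNP against eUB, 0.10 for NP minus SP and 0.15 for NP minus UB. It moved the share of calls that were higher from 43.3% to 57.8% in E12.5 against E11.5 NP, 50.5% to 65.9% in iNP against eUB, 59.5% to 71.2% for NP minus SP and 52.8% to 65.6% for NP minus UB. *Osr1* and *Wt1* in eUB are at a few reads, so depth limits what is said of them.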
